A study of Mus musculus with 10 samples.

Results

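Colonic epithelial transcripts were measured in libraries of sorted regulatory T cells, a CD4 lineage defined by Foxp3. The set held 37 of the 54532 genes of the deposited count table, chosen by name as genes of colon epithelium. It included genes already known to differ in these data, so every Tumor against WT value of a member is given as a description, and test calls of members are listed without support being drawn from them. All 37 gene names were found in the table. The gate required CD45, CD3 and CD4 together with CD25 and GFP, and libraries were made with Smart-seq2, which amplifies full-length cDNA from little RNA. The 5 Tumor libraries came from colon tumours of Apc Min/+ Foxp3 DTR mice, which carry a truncated Apc allele and form intestinal tumours. The 5 WT libraries came from the colon of Foxp3 DTR mice with the genotype given as WT. Both groups thus carried Foxp3 DTR, a diphtheria toxin receptor allele expressed under Foxp3, and all mice were male, C57BL/6 and 16 weeks old. Whether the samples within a group are separate animals or pools is not stated in the labels, so differences are read against the spread between these samples only.

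The colon surface is covered by absorptive colonocytes, which exchange ions, acid and water with the lumen, and by goblet cells, which secrete the mucin gel and its trefoil peptides. Both are held together by cadherins and claudins and carry keratins 8, 18, 19 and 20 as their cytoskeletal filaments. Epithelial cells lack CD45 and CD3, on which the gate selects. Which cells the transcripts came from was not tested. In bulk libraries, fewer cells of a type and less RNA per cell cannot be told apart.

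Promoter sequences are shown for 4 members whose levels differed widely from library to library. They are the colonocyte exchanger gene Slc26a3, the mucosal pentraxin gene Mptx1, and the neighbouring lectin genes Reg3b and Reg3g. Tumor and WT overlapped in all of them except Mptx1. Each is the 250 bases before the start annotated by RefSeq (GRCm38.p6), 5′ to 3′ on the gene's strand. RefSeq promoters matched 27 of the 37 members. RefSeq starts can differ from those of the deposited count table. For Reg3b the gene start given with its levels below lies inside the printed window, so by that start much of the window is within the gene. Capitals mark a TATA box (TATAAA), a CDX-type motif (TTTATNG) or an HNF1-type motif (named only), searched on both strands. The CDX-type and TATA motifs overlap in Reg3g.
Slc26a3, chr12:31437969-31438218, plus strand: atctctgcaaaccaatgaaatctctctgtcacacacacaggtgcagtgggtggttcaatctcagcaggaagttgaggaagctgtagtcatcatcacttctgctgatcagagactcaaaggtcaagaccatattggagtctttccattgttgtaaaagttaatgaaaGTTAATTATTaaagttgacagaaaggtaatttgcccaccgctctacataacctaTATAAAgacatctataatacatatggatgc
Mptx1, chr1:174330268-174330517, plus strand: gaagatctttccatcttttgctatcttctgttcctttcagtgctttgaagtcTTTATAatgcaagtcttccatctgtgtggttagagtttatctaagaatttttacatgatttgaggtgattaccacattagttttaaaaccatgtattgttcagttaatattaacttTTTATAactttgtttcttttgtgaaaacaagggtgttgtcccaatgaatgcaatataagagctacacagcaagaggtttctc
Reg3b, chr6:78370635-78370884, plus strand: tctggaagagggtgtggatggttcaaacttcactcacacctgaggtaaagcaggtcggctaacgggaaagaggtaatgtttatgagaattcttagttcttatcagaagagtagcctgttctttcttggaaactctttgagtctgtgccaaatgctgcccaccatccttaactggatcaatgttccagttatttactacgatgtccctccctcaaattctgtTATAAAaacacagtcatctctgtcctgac
Reg3g, chr6:78468875-78469124, minus strand: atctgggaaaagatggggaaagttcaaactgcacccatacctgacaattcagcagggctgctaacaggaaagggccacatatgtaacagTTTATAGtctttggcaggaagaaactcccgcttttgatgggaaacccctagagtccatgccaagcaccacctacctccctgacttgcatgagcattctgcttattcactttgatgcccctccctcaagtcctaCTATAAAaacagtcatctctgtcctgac
The TATA-type motif, on either strand and at any position, was found in 8 of the 27 matched members. That is 27.6% of their 29 listed promoters, against 12.4% of all 32851 promoters of the same length. The CDX-type motif was found in 5 members (17.2% of promoters, against 9.81% of all). The HNF1-type motif was found in Slc26a3 alone (3.45% against 0.371%), the HNF4-type motif CAAAGTNCA in Muc13 alone (3.45% against 1.19%) and the ETS motif CCGGAAGT in Cldn7 and Vil1 (6.90% against 2.88%). These are letter matches only.

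Tumor libraries held 3054435 to 7747699 counts and WT libraries 1676229 to 8412887. Levels are counts per 1000000 counts of a library (CPM). The libraries were not alike in the genes of the gate: 14 pan-T genes summed to 4721 to 6691 CPM in Tumor and 167 to 1553 CPM in WT, with none of the 14 at 0 in any library. Their lowest sums, 167 and 511 CPM, were those of WT replicates 1 and 2. The 5 sort marker genes (Ptprc, Cd3e, Cd4, Il2ra, Foxp3) summed to 1655 to 2785 CPM in Tumor and 86.0 to 982 CPM in WT. Macrophage genes summed to 1341 to 6070 CPM in Tumor and 67.7 to 171 CPM in WT, where Apoe, C1qa and Itgam had 0 counts in replicate 3. B and plasma cell genes summed to 94.3 to 3040 CPM and 40.4 to 17452 CPM, fibroblast genes to 38.1 to 211 and 92.0 to 274, endothelial genes to 71.4 to 194 and 61.2 to 284, smooth muscle genes to 17.7 to 70.1 and 22.7 to 180.2, and erythroid genes to 0.655 to 1258 and 1.05 to 10.4, in each case Tumor and then WT. Mitochondrial genes took 23.2% of counts in WT replicate 1 and 1.09 to 5.34% in the other 9 libraries. The part of these sums in the epithelial values was not tested.

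Epithelial transcripts were present at very different levels from library to library. Summed over the 37 members, Tumor replicates 1 to 5 held 449.8, 252, 2419, 3514 and 7457 CPM, and WT replicates 1 to 5 held 56186, 67788, 853, 339 and 709 CPM. WT replicates 1 and 2 thus carried 5.62% and 6.78% of all their counts on these genes, and no other library reached 1%. The other WT libraries lay within the range of the Tumor libraries, so the groups overlapped. Of the 37 members, 31 had WT replicates 1 and 2 as their 2 highest libraries. The 6 that did not were Clic5, Cldn4, Tff1, Reg3b, Reg3g and Nxpe4. The median over Tumor libraries exceeded the median over WT libraries for 22 members, whereas the Tumor mean exceeded the WT mean for 4 (Cldn4, Tff1, Reg3b and Reg3g).

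**Figure D1:**
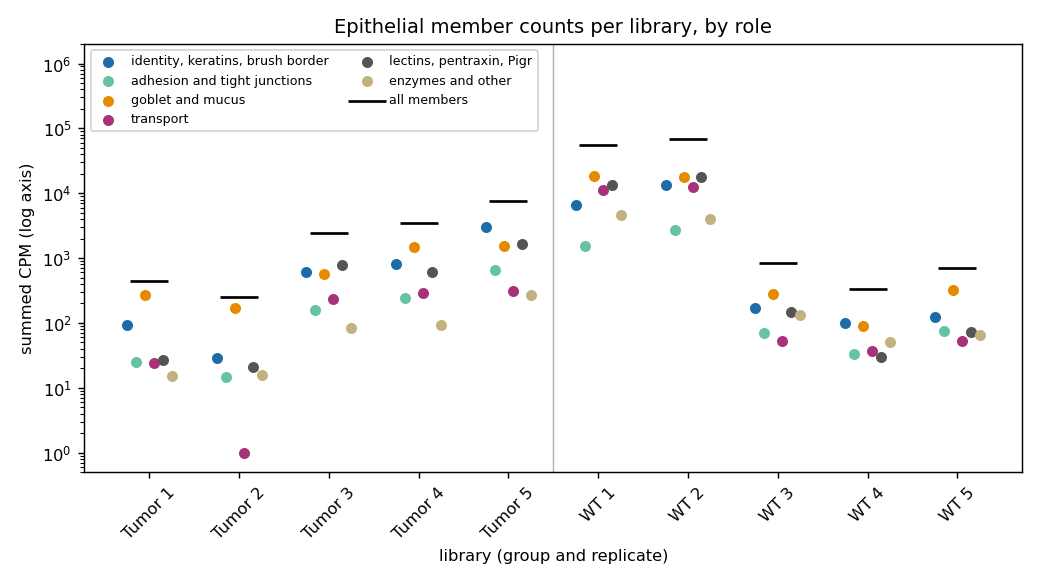
Summed CPM (log axis) of the members in each of the 10 libraries, Tumor on the left and WT on the right, as a dot for each role and a bar for all 37 genes. WT replicates 1 and 2 stand at 56186 and 67788 CPM, Tumor replicates 3 to 5 at 2419 to 7457 and the other 5 libraries at 252 to 853.

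A length-scaled background helped to place the low libraries. Olfactory and vomeronasal receptor genes, 1740 in the table, served as a background of genes with sensory roles. Their pooled level, per kilobase of gene length, was 1.83, 1.28, 0.845, 1.32 and 2.23 CPM per kilobase in the Tumor libraries, by replicate, and 1.72, 1.06, 5.37, 2.36 and 4.46 in the WT libraries. The 99th percentile over these genes was exceeded by 2, 2, 24, 23 and 22 of the 37 members in the Tumor libraries and by 33, 35, 2, 1 and 0 in the WT libraries in the same order. In Tumor replicates 1 and 2 the members above it were Tff1 with Agr2 and Tff1 with Tff3. In WT replicate 3 they were Spink4 and Mptx1, and in WT replicate 4 Tff3. In these libraries and in WT replicate 5 a difference in most single members was therefore not detectable above the background. Gm10800, a gene model made of repeats, took 9.92, 22.3 and 26.5% of counts in WT replicates 3, 4 and 5 and 0.844 to 5.77% in the other libraries.

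**Figure D2:**
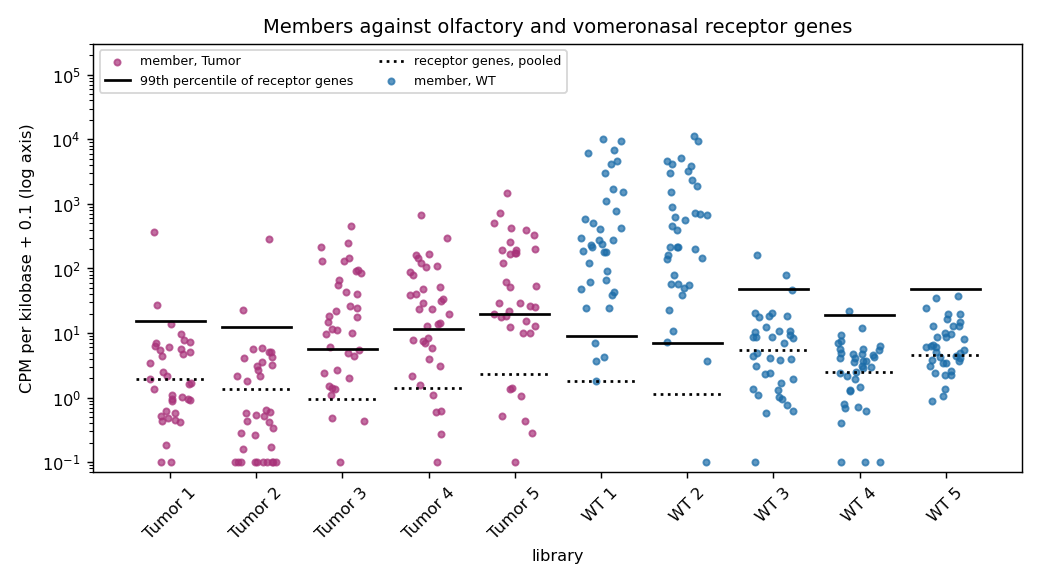
Level of each member in CPM per kilobase plus 0.1 (log axis) by library, with the 99th percentile (solid line) and the pooled level (dotted line) of receptor genes in the same library. Between 22 and 35 members lie above the solid line in Tumor replicates 3 to 5 and WT replicates 1 and 2, and 0 to 2 in the other libraries.

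In a fit across the whole table, 293 of 21414 tested genes passed as higher in Tumor (1.37% of all) and 47 as lower (0.219%), by edgeR's quasi-likelihood test at a Benjamini-Hochberg adjusted p below 0.05. All 37 members passed the filter on low counts. In this fit 1 member was called higher, Tff1, and 5 were called lower, Clic5, Ces1f, Entpd8, Nxpe4 and Mptx1. Since the members were picked with this contrast known, nothing is read from these counts. The median log2 fold change (Tumor over WT) was -3.31 over the members and -0.20 over all tested genes. In the same 6 genes the groups did not overlap: Tff1 was higher in every Tumor library, as were 4.26% of tested genes, and the other 5 were lower in every Tumor library, as were 1.59%. The direction of the whole set differed with the WT libraries included. This split of the WT libraries follows the summed member levels given above. Leaving out the 2 WT libraries highest in the members raises the members' fold changes by construction, so these fits only describe. Without WT replicates 1 and 2 the median member log2 fold change was 2.5, against -0.17 over all genes, and 7 members passed as higher, beside 6.4% of all genes tested in that fit, and 0 as lower (4 at an unadjusted p below 0.05), beside 1.5%. Those 7 were Epcam (4.12 ± 0.93), Krt19 (6.04 ± 1.55), Cldn3 (5.67 ± 1.48), Lgals4 (5.35 ± 1.36), Reg3b (5.05 ± 1.33), Zg16 (3.29 ± 0.99) and Tff1 (5.21 ± 1.06, log2 fold change ± SE). Without WT replicates 3, 4 and 5 the median was -4.56, with 1 member called higher and 9 lower, beside 2.32% and 2.09% of all genes tested. Leaving out WT replicate 1 alone ended all 6 calls (1 member higher and 11 lower at an unadjusted p below 0.05). Scaling by pan-T genes gave 35 members called lower and 0 higher (0 at an unadjusted p below 0.05), but 91.8% of all tested genes were also called lower, and the median over all genes moved from -0.20 to -3.71.

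Krt8, Krt19 and Epcam had their 5 highest libraries in the same order. Krt8, a keratin of simple epithelium (ENSMUSG00000049382, chromosome 15, 101996698 to 102004482, mm10), had 13.8, 0.327, 255, 288 and 1414 CPM in Tumor replicates 1 to 5, against 3044, 6291, 39.4, 5.56 and 9.79 CPM in WT replicates 1 to 5. Krt19 had 2.82, 10.8, 157, 205 and 786 CPM in Tumor, against 1439.7, 3532, 4.18, 1.11 and 8.06 CPM in WT. Epcam, an adhesion molecule found on nearly all gut epithelial cells, had 28.2, 5.24, 89.4, 178 and 359.8 CPM in Tumor, against 1035, 1812, 4.77, 9.63 and 12.1 CPM in WT. In each of these 3 genes WT replicates 1 and 2 were highest, Tumor replicates 5, 4 and 3 followed in that order, and the groups overlapped. Their log2 fold changes had wide errors, -2.57 ± 1.81 for Krt8, -2.40 ± 1.78 for Krt19 and -2.41 ± 1.44 for Epcam (SE). Krt18, the filament partner of Krt8, ranged over 2.95 to 289 CPM in Tumor and 13.1 to 651 CPM in WT, and Krt20, a keratin of differentiated surface cells, over 0 to 35.5 CPM in Tumor and 2.22 to 417 CPM in WT. Other identity genes differed from that order, among them Clic5, described with the called genes, and Vil1, in which WT replicates 4 and 5 (42.2 and 44.9 CPM) lay above every Tumor library. Vil1, which bundles microvillar actin, stood at 7.20 to 34.8 CPM in Tumor and 2.39 to 205 CPM in WT, and Cdhr5, a cadherin that links microvilli, at 1.31 to 79.8 and 12.6 to 445. The Krt8 values share sequence with a pseudogene: 29.7% of its 50-base stretches also occur in other genes, chiefly Krt8-ps, which had 0 to 8 counts in Tumor and 0 to 66 in WT.

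Of the 5 adhesion genes, Cldn7, Cldn3 and Cdh1 had this order too, and Cdh17 and Cldn4 did not. Cldn7, a tight junction protein, had 4.61, 0.982, 77.4, 92.3 and 325 CPM in Tumor, against 803, 1330.3, 35.8, 8.15 and 31.7 CPM in WT. Cldn3, which seals tight junctions, had 6.92, 0, 30.3, 42.1 and 151 CPM in Tumor, against 342, 714, 0.597, 0 and 2.88 CPM in WT. Cdh1, the epithelial cadherin, had 3.59, 0, 20.01, 57.5 and 79.3 CPM in Tumor, against 180.4, 366, 2.39, 11.1 and 9.79 CPM in WT. WT replicates 1 and 2 were highest for each, and Tumor replicate 2 was lowest or had no Cdh1 and Cldn3 count. Cdh17, an intestinal cadherin, had 8.20, 13.4, 26.3, 26.1 and 55.0 CPM in Tumor, against 217, 247, 30.4, 12.6 and 28.8 CPM in WT, with WT replicates 3 and 5 above Tumor replicates 3 and 4. Cldn4 (ENSMUSG00000047501, chromosome 5, 134945119 to 134946934), singled out after its values were seen, had 1.79, 0.327, 4.13, 25 and 48.3 CPM in Tumor, against 3.15, 6.54, 1.79, 1.11 and 2.30 CPM in WT. Tumor replicates 5 and 4 were its highest libraries, although the summed member level there was lower than in WT replicates 1 and 2. Counted against its neighbour Cldn3 within a library, Cldn4 had 32, 145 and 193 counts beside 235, 244 and 603 in Tumor replicates 3 to 5, and 18 and 55 counts beside 1956 and 6010 in WT replicates 1 and 2. Cldn4 thus made up 12, 37.3 and 24.2% of the pair in those Tumor libraries, against 0.912 and 0.907% in those WT libraries, with exact binomial intervals of at least 8.34% and at most 1.44%. These intervals cover counting error within a library, not the spread between libraries. In the other 5 libraries the pair had 1 to 34 counts in all. Cldn4 had 3, 3 and 4 counts beside 1, 0 and 5 for Cldn3 in WT replicates 3 to 5. Its share there, 75, 100 and 44.4%, was above that of Tumor replicates 3 to 5, on very few counts. In Tumor replicates 1 and 2 Cldn4 had 7 and 1 counts beside 27 and 0. The fitted log2 fold change of Cldn4 was 2.22 ± 1.06 (SE) and was not called. With pan-T scaling it was -1.18 ± 1.23, in a fit whose median over all genes was -3.71.

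**Figure D3:**
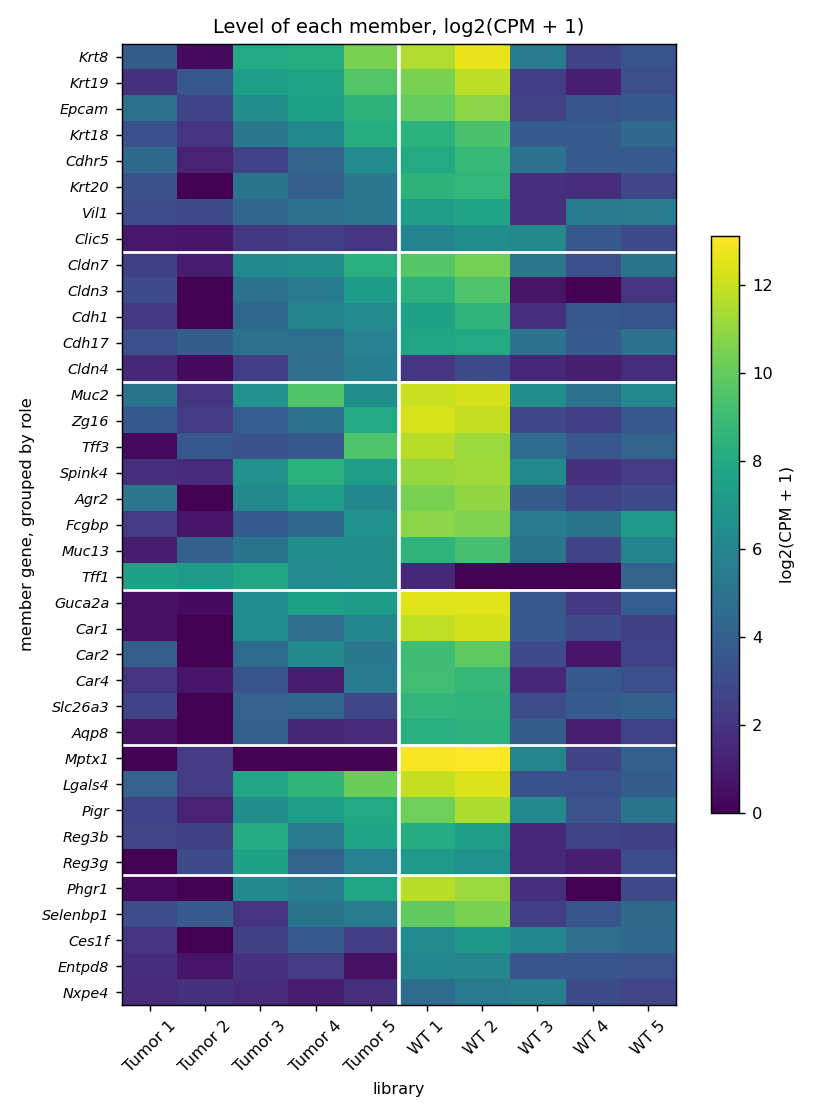
Level of each of the 37 members as log2(CPM + 1), with genes in rows grouped by role (white lines) and libraries in columns, Tumor left of WT. Most rows are brightest in WT replicates 1 and 2, whereas Tff1 is brightest in the Tumor libraries and Mptx1 is at 0 in 4 of them.

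The listed goblet cell genes, Tff1 included, formed the largest part of the member counts in 7 of the 10 libraries. In Tumor replicate 1 Tff1 gave 694 of their 1040 counts, beside 357 counts of identity genes. In WT replicate 2 they had 147569 counts, hardly more than the 147499 of the host defence genes. Muc2, the gel-forming mucin (ENSMUSG00000025515, chromosome 7, 141690340 to 141754693), had 33.3, 2.95, 104, 749 and 92.6 CPM in Tumor, against 4169.7, 4933, 88.9, 28.9 and 72.0 CPM in WT. Zg16, a lectin that binds bacteria in the mucus, had 12, 3.93, 14.2, 29.5 and 239 CPM in Tumor, against 5193, 3831, 5.97, 4.44 and 10.9 CPM in WT. Tff3, the goblet trefoil peptide, had 0.256, 11.1, 9.03, 11.6 and 719 CPM in Tumor, against 3387, 2289.9, 22.7, 10.7 and 17.3 CPM in WT. The Tumor libraries did not peak together: Muc2 was highest in replicate 4, and Zg16 and Tff3 in replicate 5. Tumor replicates 4 and 5 had 0.0394 and 2.59 Zg16 counts per Muc2 count, against 1.25 and 0.777 in WT replicates 1 and 2. The other goblet genes ranged as follows: Spink4, a protease inhibitor, over 1.96 to 326 CPM in Tumor and 2.59 to 2410.3 CPM in WT; Agr2, which helps fold mucins, over 0 to 159 and 5.19 to 1964; Fcgbp, a mucus protein, over 0.655 to 105 and 31.9 to 1857; and Muc13, a membrane mucin, over 1.03 to 88.3 and 5.56 to 605.

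Tff1 did not follow the other members. It encodes a trefoil peptide known from gastric surface mucous cells (ENSMUSG00000024032, chromosome 17, 31161396 to 31165053). It had 178, 136, 218, 78.4 and 92.3 CPM in Tumor replicates 1 to 5, against 1.75, 0, 0, 0 and 17.8 CPM in WT replicates 1 to 5, which is 694, 414, 1687, 454 and 369 counts against 10, 0, 0, 0 and 31. The groups did not overlap, and the 3 WT libraries at 0 counts allow up to 0.357, 1.79 and 1.11 CPM (3 counts per library, counting error only). Tff1 made up 39.5 and 53.8% of the member counts in Tumor replicates 1 and 2, the 2 Tumor libraries with the lowest summed level, and 1.24 to 9.0% in Tumor replicates 3 to 5. WT replicate 2, with the highest summed level, had no Tff1 count. Its fitted log2 fold change was 5.68 ± 1.21 (SE), called in 7 of 10 fits that left out 1 library (5.37 to 7.94) and not called with pan-T scaling (1.52 ± 1.19, median over all genes -3.71). The 8 listed gastric genes other than Tff1 summed to 16.4 to 71.3 CPM in Tumor and 26.2 to 308 CPM in WT. The sum of 308 CPM was that of WT replicate 5, the WT library with the most Tff1, singled out after the values were seen. There Muc6 had 78.9 CPM, Gkn2 68.5, Aqp5 62.8, Muc5ac 52.4, Gkn3 24.2 and Anxa10 17.3. Gkn1 and Tff2 had 2.30 and 1.73 CPM there, below their 18.1 and 7.41 CPM in WT replicate 4. The trefoil neighbour of Tff1, Tff2, had 0 to 9.23 CPM in Tumor and 0.597 to 7.41 CPM in WT. Of the exon bases of Tff1 in GENCODE M21, 221 of 703 overlap Gm15318 on the opposite strand, which had 0 to 15 counts in Tumor and 7 to 45 in WT. Tff1 has other coordinates in M21 than in the deposited count table, so this fraction need not hold for the counted exons. Other neighbours were read after their values were seen. Tmprss3, 13988 bases away, had 2.29 to 30.3 CPM in Tumor and 2.62 to 32.8 CPM in WT. Ubash3a, 42596 bases away, had 70.8 to 226 CPM in Tumor and 8.39 to 78.7 CPM in WT. Abcg1, 43407 bases away, had 9.51 to 58.6 CPM in Tumor and 2.45 to 50.1 CPM in WT. The groups overlapped in all 3.

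The listed transport genes of colonocytes, with the peptide gene Guca2a among them, took a larger share of the member counts in WT replicates 1 and 2 than elsewhere. Guca2a, which is no transporter, held 32568 of the list's 64114 counts in WT replicate 1 and 47869 of 106522 in WT replicate 2. In WT replicate 4 it held 10 of 100. All members together had 321350, 570291 and 914 counts in WT replicates 1, 2 and 4. The larger share thus leaned on Guca2a. Shares without it were not computed, so no larger share than elsewhere is stated for the rest of the list. The 6 genes made up 5.41, 0.390, 9.67, 8.37 and 4.12% of member counts in Tumor replicates 1 to 5, against 19.95, 18.7, 6.08, 10.9 and 7.55% in WT replicates 1 to 5. Guca2a encodes guanylin, the peptide that triggers fluid secretion through guanylate cyclase C (ENSMUSG00000023247, chromosome 4, 119637704 to 119639471). It had 0.513, 0.327, 86.2, 174 and 151 CPM in Tumor, against 5694, 5690.0, 10.7, 3.70 and 14.4 CPM in WT. Car1, a cytosolic carbonic anhydrase of colonocytes, had 0.513, 0, 82.9, 24.3 and 67.3 CPM in Tumor, against 3773, 4899, 10.7, 7.04 and 4.61 CPM in WT. Car2, its relative, had 14.6, 0, 23.1, 74.6 and 37.3 CPM in Tumor, against 517, 946, 7.16, 0.741 and 5.18 CPM in WT. WT replicates 1 and 2 were highest for all 3, and Tumor replicate 2 had 0 or 1 count. Relative to Krt8, Car1 had 0.325, 0.0845 and 0.0476 counts per Krt8 count in Tumor replicates 3 to 5, against 1.24 and 0.779 in WT replicates 1 and 2. For Car2 these ratios were 0.0906, 0.259 and 0.0264, against 0.170 and 0.150, which overlap. On few counts, the Car1 ratio was 0.273, 1.27 and 0.471 in WT replicates 3 to 5 (18, 19 and 8 Car1 counts). It was 0.0370 and 0 in Tumor replicates 1 and 2 (2 and 0 Car1 counts). Car4, a membrane carbonic anhydrase, ranged over 0.655 to 43.0 CPM in Tumor and 1.79 to 539 CPM in WT. Slc26a3, the chloride and bicarbonate exchanger whose promoter is printed above, ranged over 0 to 19.0 and 7.76 to 392, and the water channel gene Aqp8 over 0 to 15.9 and 1.11 to 341. All 6 transport genes had negative fold changes (median -4.73 on the log2 scale) and edgeR called none (6 at an unadjusted p below 0.05). DESeq2 called 4 of them lower, Car1, Car4, Slc26a3 and Aqp8, beside 4.48% of all tested genes.

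**Figure D4:**
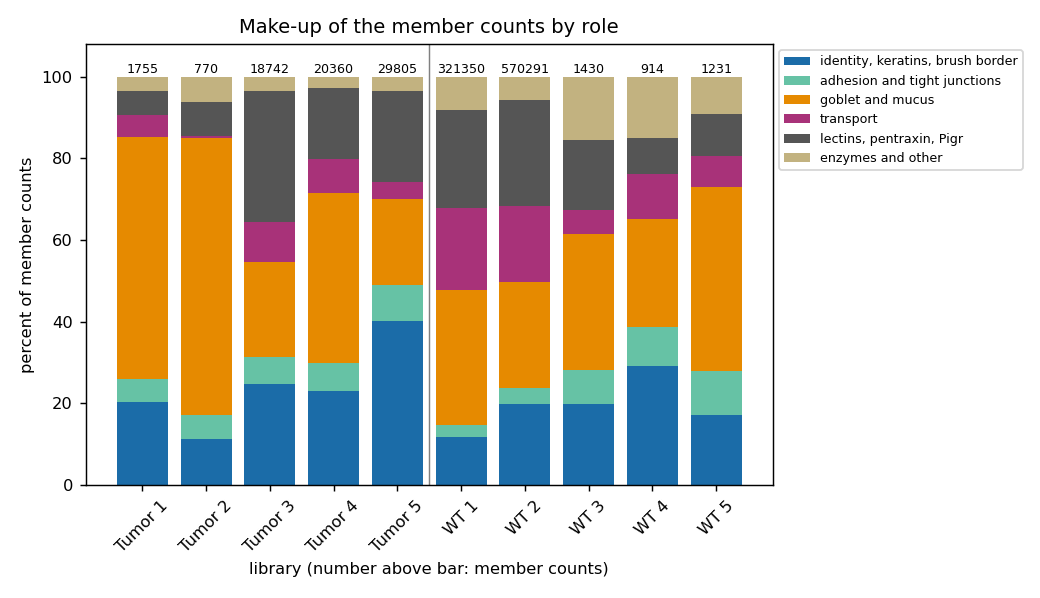
Percent of the member counts that fell on each role in each library, with the number of member counts above the bar. Transport genes, Guca2a included, made up 19.95 and 18.7% in WT replicates 1 and 2 and 0.390 to 9.67% in the Tumor libraries. In WT replicates 3 to 5 they made up 6.08, 10.9 and 7.55%. In the libraries with 770 to 1755 member counts 0 to 2 members exceeded the receptor background.

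Mptx1 and the Reg3 genes parted in opposite directions from the rest of the host defence genes. Mptx1 encodes a mucosal pentraxin (ENSMUSG00000026531, chromosome 1, 174330518 to 174332873). It had 0, 12, 0, 0 and 0 counts in Tumor replicates 1 to 5, against 46021, 74690, 105, 15 and 27 counts in WT replicates 1 to 5. In CPM this was 3.93 in Tumor replicate 2 and at most 0.769, 0.387, 0.518 and 0.751 in the other Tumor libraries (3 counts per library), against 8047, 8878, 62.6, 5.56 and 15.5 in WT. The groups did not overlap. Mptx1 was the most abundant member in WT replicates 1 and 2, at 14.3 and 13.1% of member counts. Its fitted log2 fold change, -12.25 ± 2.75 (SE), depends on the prior count and is no bound, and without WT replicates 1 and 2 it was -4.56 ± 1.54 and not called. Mptx1 shares 17.9% of its 50-base stretches with Mptx2, which had 0 to 15 counts in Tumor and 0 to 29 in WT. Lgals4, encoding the gut lectin galectin-4, had 16.1, 3.93, 219.7, 388 and 1159 CPM in Tumor, against 3896, 5484, 8.95, 8.15 and 13.8 CPM in WT. Tumor replicates 3 to 5 thus held 1702, 2246 and 4634 Lgals4 counts with no Mptx1 count. Pigr, the receptor that carries IgA across the epithelium, had 5.13, 1.31, 87.4, 163 and 246 CPM in Tumor, against 1199, 2905, 70.4, 9.26 and 31.7 CPM in WT.

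Reg3b and Reg3g, bactericidal lectins of the mucosa, were as high in some Tumor libraries as in WT replicates 1 and 2 and were singled out after their values were seen. Reg3b (chromosome 6, 78370657 to 78373466) had 5.64, 4.58, 282, 43.7 and 201 CPM in Tumor, against 278, 161, 1.79, 5.56 and 4.61 CPM in WT. Reg3g (chromosome 6, 78466269 to 78468872) had 0, 7.20, 191, 17.6 and 53.0 CPM in Tumor, against 138, 104, 1.79, 1.11 and 7.49 CPM in WT. Tumor replicate 3 was the highest library for both, with a summed member level of 2419 CPM against 56186 and 67788 CPM in WT replicates 1 and 2. Relative to Krt8, Reg3b had 1.11, 0.152 and 0.142 counts per Krt8 count in Tumor replicates 3 to 5, against 0.0912 and 0.0256 in WT replicates 1 and 2. On few counts, the ratio was 0.0455, 1 and 0.471 in WT replicates 3 to 5 (3, 15 and 8 Reg3b counts). It was 0.407 and 14 in Tumor replicates 1 and 2 (22 and 14 Reg3b counts). The ratios thus overlapped between groups. The groups overlapped in both genes, and the log2 fold changes were 0.06 ± 1.34 and 0.0024 ± 1.40 (SE). Neither shares a 50-base stretch with another gene.

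**Figure D5:**
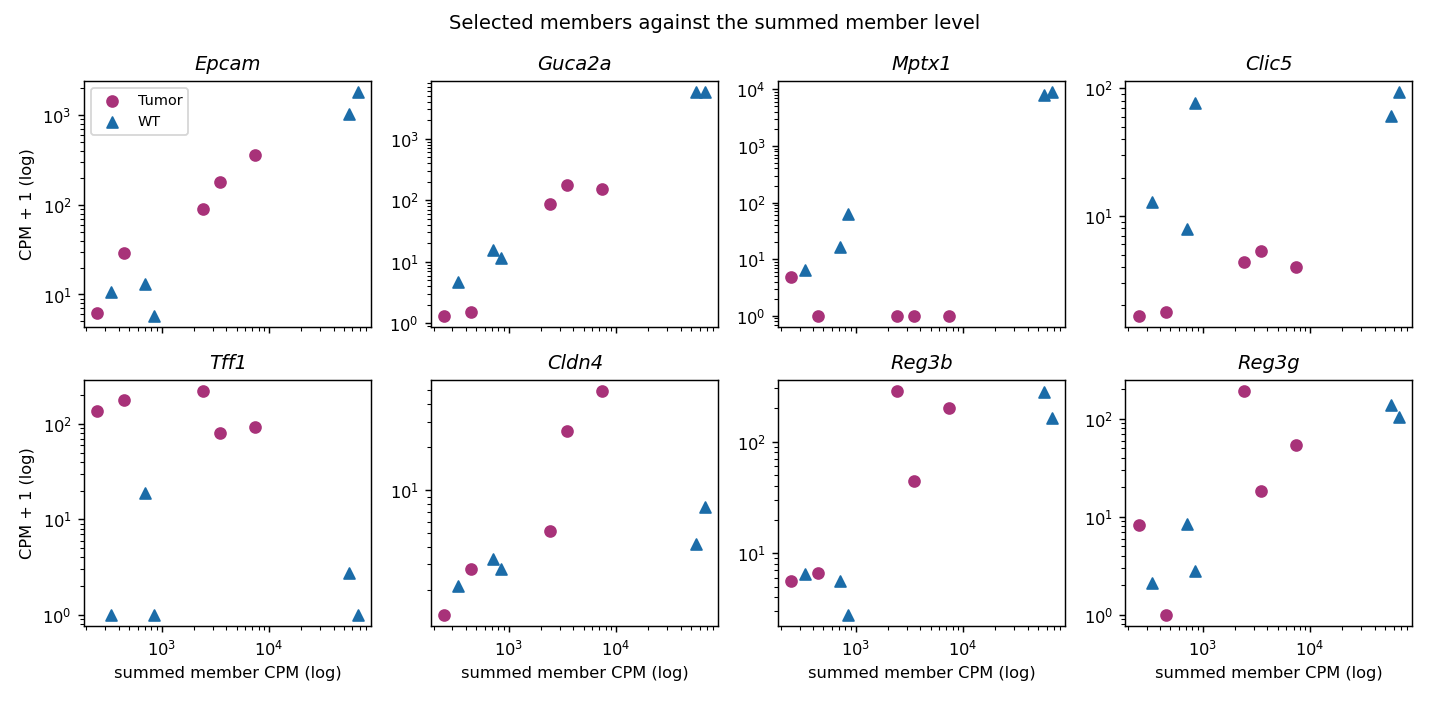
CPM + 1 of 8 members against the summed member CPM of the library (both axes log), with Tumor libraries as circles and WT libraries as triangles. Epcam and Guca2a follow the sum, Mptx1 is at 0 in 4 Tumor libraries, Clic5 is lowest in Tumor, Tff1 is highest in Tumor, and Cldn4, Reg3b and Reg3g peak in Tumor replicate 5 or 3.

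The 4 other called genes were low in Tumor and reached at most 127 CPM in any library. Clic5, a chloride channel family protein of the brush border (ENSMUSG00000023959, chromosome 17, 44188584 to 44280172), had 0.769, 0.655, 3.36, 4.32 and 3.0 CPM in Tumor, against 59.8, 92.4, 75.2, 11.9 and 6.91 CPM in WT. Ces1f, a carboxylesterase, had 3.08, 0, 4.65, 12.6 and 4.25 CPM in Tumor, against 79.2, 127, 66.8, 24.4 and 20.7 CPM in WT. Nxpe4 had 2.05, 2.62, 1.94, 1.04 and 2.5 CPM in Tumor, against 24.3, 41.7, 48.3, 7.04 and 5.76 CPM in WT. For each of these 3 genes WT replicate 3 was among the 3 highest libraries. Entpd8, an ectonucleotidase, had 2.31, 0.655, 2.71, 3.97 and 0.50 CPM in Tumor, against 66.8, 61.9, 10.1, 9.63 and 9.21 CPM in WT. Their log2 fold changes were -4.28 ± 0.83 for Clic5, -3.70 ± 0.83 for Ces1f, -3.52 ± 0.82 for Nxpe4 and -4.0 ± 0.91 for Entpd8 (SE). Scaled to gene length, Clic5 and Nxpe4 stood at 8.56 and 8.18 CPM per kilobase in WT replicate 3, where the receptor genes stood at 5.37 pooled and 47.7 at their 99th percentile. Over all 10 libraries Clic5 and Nxpe4 exceeded that percentile in 1, and Ces1f and Entpd8 in 2. In WT replicates 4 and 5, Clic5 at 1.35 and 0.787 CPM per kilobase lay below the pooled receptor level of 2.36 and 4.46. None of the 4 was called without WT replicates 1 and 2, where their log2 fold changes were -3.22 ± 1.05, -2.52 ± 0.98, -2.82 ± 1.12 and -1.81 ± 1.20.

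The remaining members of that role were highest in WT replicates 1 and 2. Phgr1, a small protein of the gut surface, had 0.256, 0, 70.6, 44.0 and 217 CPM in Tumor, against 3422, 2274, 2.39, 0 and 6.91 CPM in WT. Selenbp1, a selenium-binding protein of mature colonocytes with its lowest level in Tumor replicate 3, had 7.69, 12.4, 2.97, 32.8 and 44.3 CPM in Tumor, against 965, 1440.4, 4.18, 10 and 21.9 CPM in WT. Selenbp1 shares 46.3% of its 50-base stretches with Selenbp2, so its counts are uncertain.

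Compared by the ranks of the 37 members' levels per kilobase, WT replicates 1 and 2 had nearly the same profile (Spearman correlation across genes 0.98). Tumor replicates 3, 4 and 5 resembled each other (0.82 to 0.85) more than they resembled WT replicates 1 and 2 (0.45 to 0.58). The other pairs of libraries ran from -0.10 to 0.60. These are correlations across genes, which are not independent replicates, and the values of a library share its depth.

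Epithelial genes outside the set were listed by cell type, also with earlier results of these data known. Of 116 such genes, 95 were tested, none passed as higher (0 calls, with 1 gene at an unadjusted p below 0.05 and 1 call each by DESeq2 and limma voom) and 3 lower (edgeR's quasi-likelihood test), beside 1.37% and 0.219% of all tested genes. Clca1, a goblet cell secreted protein, had 14.1, 1.96, 6.07, 3.28 and 39.0 CPM in Tumor, against 1428, 1012, 89.5, 40.4 and 14.4 CPM in WT. Its mean was 12.9 ± 15.4 CPM in Tumor and 517 ± 659 CPM in WT (SD, n = 5 each). Its log2 fold change was -5.63 ± 1.31 (SE, edgeR adjusted p = 0.0346). Cdhr2, a microvillar cadherin, had 4.10, 11.1, 10.8, 11.6 and 14.5 CPM in Tumor, against 157, 216, 34.0, 24.4 and 37.4 CPM in WT, a log2 fold change of -3.24 ± 0.73 (edgeR adjusted p = 0.0297) with no overlap. Clca1 overlapped between groups, and the calls of Clca1 and Cdhr2 each held in 3 of 10 fits that left out 1 library.

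By list, 1 of 12 tested colonocyte genes, 1 of 14 goblet genes, 0 of 26 identity and junction genes and 1 of 8 brush border genes were called lower, with median log2 fold changes of -2.33, -2.82, -1.83 and -2.18. Over all listed genes the median was -1.60, and -0.09 without WT replicates 1 and 2, where 0 were called lower and 3 higher. Plac8 and Saa1, the most abundant colonocyte genes of the list, had 39.3 to 298 and 0.655 to 386 CPM in Tumor, against 10.9 to 1232 and 5.93 to 1237 CPM in WT. Klk1, a kallikrein and the most abundant goblet gene of the list, had 12.8 to 248 CPM in Tumor, against 1.85 to 2888 CPM in WT. Elf3, an epithelial transcription factor, had 1.03 to 156 CPM in Tumor, against 4.81 to 461 CPM in WT, and Myo1a, a brush border myosin, had 4.91 to 44.0 CPM against 16.1 to 286. Pkp3, a desmosomal plakophilin, went the other way, with 244, 399, 414, 129 and 288 CPM in Tumor, against 62.1, 72.0, 58.5, 51.5 and 23.6 CPM in WT. Its groups did not overlap, and its log2 fold change of 2.58 ± 0.65 missed the threshold (edgeR adjusted p = 0.0501). Pkp3 was the 1 gene called higher by DESeq2 and limma voom.

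Genes of the other epithelial lineages gave no call in the edgeR fit of all 10 libraries without pan-T scaling. DESeq2 called Chga, Chgb and Muc6 lower, beside 4.48% of all tested genes. Limma voom with quality weights called Chga lower, beside 114 of 21414 tested genes. Without WT replicates 3, 4 and 5 edgeR called Ptgs1 higher and Rgmb lower, beside 2.32% and 2.09% of all genes tested. Pan-T scaling called 11 stem cell and Wnt target, 5 enteroendocrine, 9 tuft, 5 small intestinal and 4 gastric genes lower, beside 91.8% of all tested genes. In the fit of all 10 libraries without pan-T scaling, 0 of 11 tested stem cell and Wnt target genes were called (0 at an unadjusted edgeR p below 0.05). Their median log2 fold change was -0.33. The 12 genes of this list summed to 84.5 to 294 CPM in Tumor and 119 to 279 CPM in WT. Its most abundant genes, Smoc2 and Sox9, had 8.78 to 58.0 and 6.92 to 64.8 CPM in Tumor, against 11.2 to 56.7 and 3.58 to 82.6 CPM in WT. Enteroendocrine (Chga 0 to 2.82 CPM in Tumor and 5.23 to 32.8 CPM in WT; Chgb 0 to 6.50 and 5.19 to 27.6), tuft (Dclk1 6.50 to 82.5 and 21 to 106; Ptgs1 9.03 to 51.5 and 1.66 to 68.5) and small intestinal genes (Sis 19.7 to 39.8 and 30.4 to 77.0; Lct 0 to 27.4 and 2.10 to 51.2) were low, the genes named here reaching at most 106 CPM. In the same fit none of 5, 9 and 6 tested genes of these lists, nor of 4 gastric genes, was called. At an unadjusted edgeR p below 0.05, 2, 1, 0 and 1 were lower. The 12 small intestinal genes summed to 34.7 to 157 CPM in Tumor and 94.9 to 173 CPM in WT.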

How the data were processed

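The 10 mouse samples, 5 Tumor and 5 WT, were profiled by Smart-seq2 and grouped and numbered by their titles. The authors deposited a whole-number read count for each gene, without normalization, and the 10 single-sample tables held the same values as the table of the series. Per the submitters' processing notes the build was mm10 and the tools were HISAT2 2.0.5 and featureCounts 1.5.0-p3. Strand setting, handling of multimapped reads and annotation release are not given in the sources used here, so reads of overlapping or near-identical genes cannot be told apart. Of the members, 35 of 37 had the same coordinates in GENCODE M21, 6 shared exon bases with another gene and 7 shared over 5% of their 50-base stretches with another gene.

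The members and gene lists were chosen with earlier results of these data known. CPM values use the total count. The fit used R 4.3.3 and edgeR 4.0.16: filterByExpr (minimum count 10, minimum total 15), TMM, a robust quasi-likelihood F test with group as the only term, 2-sided, and Benjamini-Hochberg adjustment over 21414 genes. The standard error is the log2 fold change divided by the square root of F. The biological coefficient of variation was 86.1%. Tested on simulated data of the same design and 21414 genes, it recovered 46.4% of 16-fold changes, 1.61% of 4-fold changes and 0% of 2-fold changes, so an uncalled gene can differ several fold. All 45 pairs of libraries differed by more than sampling noise (chi-square per degree of freedom at least 25.7). Reads carry no molecular identifiers, so intervals and limits cover counting error only. Every member was described. Values in each library were given for the 3 most abundant members of each role and all called members; companion genes were named when called or among the 2 most abundant of a list, except 1 called gene that is not reported here. Alternatives were other scalings, DESeq2 1.42.0, limma 3.58.1 (voom), other filters, the replicate number as a block and libraries left out.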

Additional observations from a re-analysis of the deposited data

Results flagged for a closer look

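Within groups of 5 libraries, 1 library stood far from the other 4 in 16 of 88 gene or list values tested. The rule flags about 1 in 20 by chance in normally distributed values, which CPM values need not be. All 16 flags were at the high end, so their number is not read as an excess over chance. Tumor replicate 5 was the high library for the summed identity genes (3002 CPM) and for Krt8 (1414 CPM), Krt18 (289), Krt19 (786), Cdhr5 (79.8), Cldn3 (151), Cldn7 (325), Fcgbp (105), Tff3 (719), Zg16 (239) and Car4 (43.0). Tumor replicate 4 was the high library for Muc2 (749 CPM), Tumor replicate 3 for Aqp8 (15.9) and Reg3g (191), and Tumor replicate 2 for Mptx1 (3.93, where the other 4 Tumor libraries had 0 counts). In WT, replicate 5 stood apart for Tff1 (17.8 CPM). These values share libraries and are not independent of each other. No WT library was flagged for the keratins or mucins, since replicates 1 and 2 were high together.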

How the results depend on the processing

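The direction of the member set rested on WT replicates 1 and 2, the 2 libraries with the highest summed member CPM. Its median log2 fold change of -3.31 reversed to 2.5 without them, where their removal raises it by construction. With a replicate block it reversed to 0.46. With pan-T scaling it was -7.17. It kept its sign under the other alternatives, at -1.58 by limma voom, -0.89 with quality weights, -4.56 without WT replicates 3, 4 and 5 and -3.63 to -2.43 with single libraries left out. The 340 called genes became 19673 with pan-T scaling, 1637 by DESeq2, 824 by limma voom with quality weights, 820 with no filter, 1993 without WT replicates 1 and 2, 1325 without WT replicates 3, 4 and 5, and 65 to 417 with single libraries left out. Members called higher (1) became 0 with upper-quartile, total-count and pan-T scaling, 7 without WT replicates 1 and 2, and 0 to 1 with single libraries left out. Members called lower (5) became 35 with pan-T scaling, 15 by DESeq2, 1 by limma voom and 2 with its quality weights, 1 with the filter of 10 CPM in 5 libraries, 0 without WT replicates 1 and 2, 9 without WT replicates 3, 4 and 5, and 0 to 6 with single libraries left out. Other epithelial genes called higher (0) became 1 with upper-quartile or total-count scaling, DESeq2, both voom fits, no filter, the filter of 10 CPM or protein coding genes alone, 3 without WT replicates 1 and 2, 2 without WT replicates 3, 4 and 5, and 0 to 1 with single libraries left out. Those called lower (3) became 93 with pan-T scaling, 26 by DESeq2, 0 by voom and 1 with its quality weights, 5 with no filter and with the filter of 10 CPM, 0 without WT replicates 1 and 2, 34 without WT replicates 3, 4 and 5, and 0 to 7 with single libraries left out. The causes were not tested. The highest library held 269 times the summed member CPM of the lowest, 247 and 286 times with TMM scaling and without repeat, mitochondrial and receptor segment genes in the total, and 7076 times as a ratio to pan-T counts. Of the 370 member values, 144 exceeded the receptor background, and 168 or 114 with its 95th percentile or its highest gene. Goblet genes, Tff1 included, were the largest role in 7 libraries by counts and in 10 per kilobase.

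Tumor and WT libraries with the same number had correlations of deviations of -0.14 to 0.02. Those with different numbers had -0.20 to 0.20. So few correlations cannot decide whether libraries with the same number were paired. The fit with the replicate block called 141 genes, 1 member higher, 1 member lower and 0 other epithelial genes lower. In the libraries with 770 to 1755 member counts, 0 to 2 members exceeded the receptor background.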

Other observations

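Genes outside the lists with levels most like the summed member level, over the 10 libraries, were chosen by the Pearson correlation of log2(CPM + 1) among 12517 protein-coding genes averaging 10 CPM or more. The 10 highest (0.972 to 0.992) were Mut, Sycn, Tst, Mgst3, Tspan1, Sult1b1, Sprr2a3, Ppp1r14d, Dmbt1 and 2200002D01Rik. The libraries are not spread evenly, so this is a description and carries no p. Sycn, known as a zymogen granule protein of exocrine cells, had 0, 0, 13.8, 32.6 and 236 CPM in Tumor replicates 1 to 5, against 1727, 2327, 2.98, 0.370 and 5.18 CPM in WT replicates 1 to 5. Dmbt1, a mucosal scavenger receptor protein, had 13.6, 11.8, 236, 151 and 385 CPM in Tumor, against 1127, 2149.9, 36.4, 33.0 and 34.5 CPM in WT. Mgst3, a membrane glutathione transferase, had 10.3, 4.58, 23.9, 67.3 and 189 CPM in Tumor, against 938, 939, 10.1, 1.48 and 10.9 CPM in WT. Sult1b1, a sulfotransferase, had 10.8, 5.57, 18.7, 23.1 and 53.5 CPM in Tumor, against 224, 163, 14.3, 3.33 and 9.21 CPM in WT. In all 4 genes Tumor replicate 5 was the highest Tumor library and WT replicates 1 and 2 were the highest of all.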
